A study of Mus musculus with 9 samples.

Results

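The matrix metalloproteinases (MMPs) and their tissue inhibitors (TIMPs) were described across 3 culture conditions in MLO-Y4, a mouse cell line with features of osteocytes. The set was chosen by name as 7 enzymes, Mmp2, Mmp3, Mmp9, Mmp10, Mmp13, Mmp14 and Mmp19, and 3 inhibitors, Timp1, Timp2 and Timp3, and makes 10 of the 56748 genes in the table. Of these, 9 passed the filter on low counts, which left 13812 genes to be tested, and Mmp10 did not. MLO-Y4 cells grew on plates coated with collagen at 0.15 mg/mL, and primary articular chondrocytes from C57BL/6J mice 5 to 6 days old, used within passage 2, sat above them on inserts with pores of 1.0 µm. In the 24 h and 48 h groups the chondrocytes had been stimulated with interleukin-1β (IL-1β) at 10 ng/mL for 6 h and washed before co-culture of that length. The control group was cultured with chondrocytes that had not been stimulated, and the labels do not give its co-culture time, so stimulation and time in culture cannot be told apart in a comparison with control. Each group holds 3 libraries of osteocyte RNA. Nothing in the labels says that they came from separate cultures, so p-values measure only the spread between these libraries, which may be technical. The labels of the 48 h samples name the cell line MLO-Y5, MLO-Y6 and MLO-Y7, while the protocols name MLO-Y4 throughout.

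MMPs are zinc-dependent endopeptidases that are made as inactive precursors and together cleave most proteins of the extracellular matrix. Stromelysin 1 (Mmp3) cleaves proteoglycans and activates other MMPs, collagenase 3 (Mmp13) cleaves fibrillar collagen of cartilage and bone, and the gelatinases (Mmp2 and Mmp9) act on denatured collagen. Membrane-anchored Mmp14 activates proMMP2 at the cell surface with the help of Timp2. TIMPs bind the active site of MMPs, and osteocytes are known to use MMPs to remodel the matrix around their lacunae and canaliculi. Messenger RNA levels do not report precursor activation or inhibitor binding.

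Total counts ranged from 12250628 to 18515456 per library, and levels are given as CPM, the counts relative to a TMM-scaled library total (TMM, a trimmed mean over genes that evens out library composition). The upper limit that a count of 0 allows, taken as 3 counts, lay between 0.160 and 0.245 CPM and covers counting error only. Among the markers of mature osteocytes, Sost had at most 1 count and Dmp1 at most 6 counts in any library, and Mepe and Fgf23 had 0, as had the osteoblast gene Ibsp. Others were well expressed, with control means of 14.6 CPM for Phex, 212 CPM for Pdpn, 1498 CPM for Gja1 and 3881 CPM for Spp1. The list of 15 osteocyte and osteoblast markers summed to between 7206 and 7433 CPM in control, 7487 and 7681 CPM at 24 h and 6886 and 6910 CPM at 48 h, and of its 10 tested genes 3 rose and 5 fell at 48 h against control and 1 rose and 1 fell at 24 h. These and the marker counts after them stand beside 46.4% of all tested genes called at 48 h and 6.15% at 24 h. Of the 14 chondrocyte markers, 5 had no count in any library, among them Acan, Col9a1 and Matn1, and Col2a1 reached at most 7 counts. The summed chondrocyte list lay between 1685 and 1719 CPM in control, between 1569 and 1652 CPM at 24 h and between 2132 and 2221 CPM at 48 h, and Prg4 and Sox9, which averaged 1576 and 112 CPM in control, held most of it. Of its 7 tested genes, Sox9, Comp, Col11a1 and Prg4 rose and Matn3 fell at 48 h against control, and 0 were called at 24 h. Comp had at most 7 counts in control and at most 4 at 24 h. It passed the filter on low counts through its 48 h libraries (12 to 21 counts), so its rise was favoured by the filter. Of 7 fibroblast and synovial markers, 2 had no count, and the 3 tested, Pdgfra, Dcn and Col3a1, all rose at 48 h against control while the summed list went from a range of 1600 to 1788 CPM to one of 3438 to 3512 CPM. At 24 h Dcn and Col3a1 rose and the list summed to between 1860 and 1876 CPM. Macrophage and leukocyte markers summed to between 3.94 and 7.93 CPM in any library, with Adgre1 and Itgam at 0 counts and Ptprc at no more than 1, and of the 2 tested only Csf1r was called, lower at 24 h than in control. The part of these cell type lists in the results on MMPs and TIMPs was not tested.

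Mmp3, Mmp10 and Mmp13 belong to a cluster of 10 Mmp genes that spans 427 kb of chromosome 9, in the order Mmp13, Mmp12, Mmp1b, Mmp3, Mmp1a, Mmp10, Mmp8, Mmp27, Mmp20 and Mmp7 (GRCm39). Reads were found in quantity for only Mmp13 (chr9:7272514-7283331) and Mmp3 (chr9:7445822-7455975), both on the plus strand and 162 kb apart. The 8 others, Mmp10 (chr9:7502353-7510241) included, reached at most 2 counts in any library. The 250 bases upstream of the annotated start are shown for Mmp3 and Mmp13, which had the largest log2 fold changes of the set against control at either time, for their neighbour Mmp10, which had next to no reads, and for the inhibitor Timp1, so that the position of the AP-1 motif can be compared. Sequences were read 5′ to 3′ on the plus strand of GRCm39, and capitals mark TGANTCA, the motif bound by AP-1, a dimer of Fos and Jun family proteins.
Mmp3, chr9:7445572-7445821: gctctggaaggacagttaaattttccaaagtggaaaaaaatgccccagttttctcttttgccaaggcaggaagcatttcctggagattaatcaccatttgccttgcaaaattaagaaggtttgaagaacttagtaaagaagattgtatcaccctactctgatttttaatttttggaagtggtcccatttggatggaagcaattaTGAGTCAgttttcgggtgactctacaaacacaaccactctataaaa
Mmp13, chr9:7272264-7272513: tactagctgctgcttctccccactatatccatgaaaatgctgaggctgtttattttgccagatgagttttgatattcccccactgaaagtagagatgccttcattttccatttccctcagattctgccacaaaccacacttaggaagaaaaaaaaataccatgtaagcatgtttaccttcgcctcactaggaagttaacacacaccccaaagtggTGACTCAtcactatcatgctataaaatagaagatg
Mmp10, chr9:7502103-7502352: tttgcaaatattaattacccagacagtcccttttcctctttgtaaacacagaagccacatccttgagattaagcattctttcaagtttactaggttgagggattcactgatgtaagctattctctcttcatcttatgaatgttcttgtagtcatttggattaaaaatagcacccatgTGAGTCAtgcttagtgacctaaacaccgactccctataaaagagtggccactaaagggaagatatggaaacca
Timp1, chrX:20736101-20736350: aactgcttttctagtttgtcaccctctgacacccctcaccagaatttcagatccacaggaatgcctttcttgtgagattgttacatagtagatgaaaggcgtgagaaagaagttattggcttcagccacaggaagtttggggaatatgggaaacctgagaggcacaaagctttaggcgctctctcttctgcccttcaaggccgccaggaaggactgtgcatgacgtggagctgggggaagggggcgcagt

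TGANTCA, searched on both strands, was present in 5 of the 7 enzyme promoters and in none of the 3 TIMP promoters, against 6.17% of 21770 promoters of the same length. Its matches began 46 bases upstream of the start in Mmp3, 35 in Mmp13, 73 in Mmp10, 69 in Mmp9 and 26 in Mmp19, while Mmp2 and Mmp14 had no match. The start is that of the canonical transcript, which can differ from the gene span given with the counts. For Mmp9 the window (chr2:164789889-164790138) lies inside that span (chr2:164782700-164797770), and the Timp2 window overlaps its own span. TATAAA, found in 11.9% of all promoters, stood in Mmp3, Mmp10 and Mmp13. The RUNX motif TGTGGT, in 13.0% of all promoters, stood in Mmp9 and Mmp13. AGGAAG, a motif of ETS factors such as PEA3 and present in 28.9% of all promoters, was found in Mmp3, Mmp13, Mmp14 and all 3 Timp genes. TTNNGNAA, a motif of C/EBP factors in 36.9% of promoters, matched at 3 places in Mmp3 and at 1 each in Mmp9 and Timp1. The NF-kB (kappa B) motif, in 5.16% of promoters, matched none of the 10. No match of one motif overlapped that of another in these 10 windows. Mmp10, which had a match of the AP-1 motif and of TATAAA, was represented by 1 read in 1 control library, by 1 read in 1 of the 24 h libraries and by 0 reads at 48 h.

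At 48 h of co-culture with stimulated chondrocytes, 5 of the 9 tested genes were higher than in control, Mmp2, Mmp3, Mmp13, Mmp19 and Timp3, and 3 were lower, Mmp9, Timp1 and Timp2. Across all genes tested, 46.4% were called in that comparison, with 22.0% higher and 24.4% lower, so that a call alone was common at 48 h. For 8 of the 9 the 48 h and control libraries had no overlap, against 53.1% of all tested genes. At 24 h, Mmp3, Mmp13 and Timp1 were higher and Mmp2, Mmp14 and Timp2 lower than in control. Of all tested genes 6.15% were called at 24 h, 3.25% higher and 2.90% lower, and 21.5% had groups that did not overlap, as 6 of the 9 did. From 24 h to 48 h, 6 rose, Mmp2, Mmp13, Mmp14, Mmp19, Timp2 and Timp3, and 2 fell, Mmp9 and Timp1, where 49.1% of all genes were called, 23.7% higher and 25.4% lower. The groups did not overlap for 8 of the 9, against 59.4% of all genes. The median log2 fold change of the 9 was 0.50 at 48 h and 0.15 at 24 h against control and 0.21 between the times, beside medians over all genes of -0.0022, -0.0042 and -0.0017. By size, Mmp3 and Mmp13 were among the 3.80% of genes that rose by at least 1 on the log2 scale at 48 h, and Mmp9 among the 1.30% that fell by as much. At 24 h Mmp3 and Mmp13 were among 0.333%, and none of the 9 among the 0.123% that fell that far. Between the times Mmp13 was among 4.29% and Mmp9 and Timp1 among 1.55%. The comparisons of 24 h and 48 h with control share the same 3 control libraries.

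**Figure D1:**
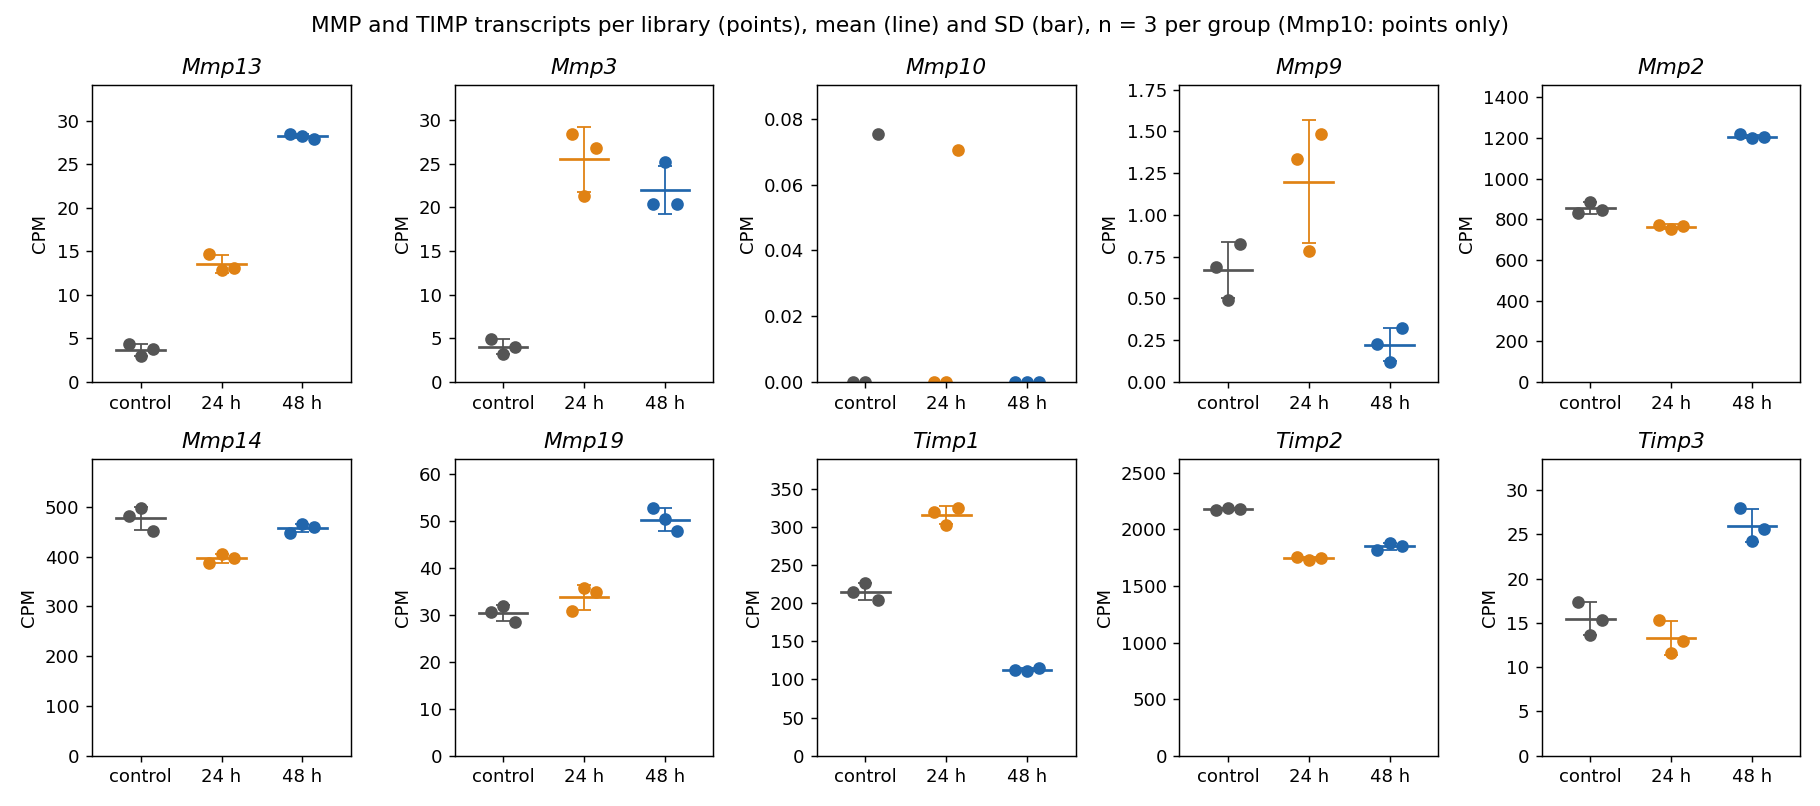
Level of each of the 10 genes in CPM (linear vertical axes from 0, each with its own range) in the control, 24 h and 48 h groups of 3 libraries, with 1 point per library and the mean and SD as a line and bars except for Mmp10, which has points only. Mmp13 climbs from a mean of 3.70 to 13.5 to 28.2 CPM, Timp1 is highest at 24 h and lowest at 48 h, and Mmp10 stays at 0 or 1 count.

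Mmp3, stromelysin 1, was at 4.90, 3.19 and 3.99 CPM in control (39 to 78 counts), at 28.4, 21.4 and 26.8 CPM at 24 h and at 20.4, 25.2 and 20.4 CPM at 48 h. Every stimulated library was above every control library, and the 24 h and 48 h libraries overlapped. The log2 fold change was 2.64 at 24 h (SE 0.154, adjusted p = 2.47e-09 by edgeR's quasi-likelihood test), a 6.23-fold difference that ranked 7 among the 13812 genes by size of increase. At 48 h it was 2.42 (SE 0.154, adjusted p = 5.3e-10), or 5.37-fold. The difference of -0.22 between 48 h and 24 h had a 95% interval of -0.46 to 0.032 and was not called, with an adjusted p of 0.142. Without 24 h replicate 2, the lowest of its group, that difference was -0.32 and passed with an adjusted p of 0.0378.

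Mmp13, collagenase 3, was at 4.33, 2.94 and 3.84 CPM in control (36 to 69 counts), at 14.8, 12.8 and 13.1 CPM at 24 h and at 28.5, 28.3 and 28.0 CPM at 48 h. The 3 groups stood apart in this order with no overlap. Its log2 fold change against control was 1.85 at 24 h (SE 0.131, adjusted p = 3.12e-08), which is 3.61-fold, and 2.91 at 48 h (SE 0.120, adjusted p = 1.84e-12), which is 7.51-fold and ranked 21 by size of increase. From 24 h to 48 h it rose by a further 1.06 (SE 0.0973, adjusted p = 5.53e-08). This is 2.08-fold, where Mmp3 had no called difference between the times, and the courses of the 2 genes were not tested against each other.

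Mmp9, gelatinase B (chr2:164782700-164797770), had few reads and passed the filter on low counts through its 24 h libraries, where it was highest, so its differences from that group were favoured by the filter. It had 11, 6 and 11 counts in control, 20, 12 and 21 at 24 h and 4, 2 and 6 at 48 h. These are 0.691, 0.491 and 0.828 CPM in control, 1.34, 0.781 and 1.48 CPM at 24 h and 0.229, 0.120 and 0.320 CPM at 48 h, where 1 library held fewer than 3 counts. The 48 h libraries lay below all others, while 24 h and control overlapped. The log2 fold change was -2.36 from 24 h to 48 h (SE 0.461, adjusted p = 0.000332) and -1.54 at 48 h against control (SE 0.518, adjusted p = 0.0207), with a 95% interval of -2.63 to -0.45. With no filter on low counts these were -2.38 (adjusted p = 2.19e-05) and -1.55 (adjusted p = 0.0253), and in a fit of only control and 48 h the filter removed the gene. At 24 h the difference of 0.82 from control was not called (adjusted p = 0.278). Against control, the call at 48 h did not hold when control replicate 1 (adjusted p = 0.0565), control replicate 3 (0.0761) or 48 h replicate 2 (0.0805) was left out.

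Mmp2, gelatinase A (chr8:93553919-93580048), was the most abundant of the enzymes, at 831, 886 and 847 CPM in control, 774, 753 and 764 CPM at 24 h and 1217, 1200 and 1202 CPM at 48 h. The 24 h libraries were lowest and the 48 h libraries highest, with no overlap between groups. It was 1.41-fold higher at 48 h than in control (log2 fold change 0.50, SE 0.0381, adjusted p = 5.97e-09) and 1.58-fold higher than at 24 h (log2 fold change 0.66, adjusted p = 1.33e-10). The log2 fold change of -0.16 at 24 h passed with an adjusted p of 0.0137 but was lost without 24 h replicate 1 (adjusted p = 0.0583), 2 (0.0637) or 3 (0.0679).

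Mmp14, the membrane-type enzyme that activates proMMP2 (chr14:54669069-54682821), was at 482, 497 and 451 CPM in control, 387, 405 and 398 CPM at 24 h and 448, 465 and 459 CPM at 48 h. Only the 24 h libraries stood apart, below the others. It fell by 0.27 on the log2 scale at 24 h (SE 0.0456, adjusted p = 0.000893) and rose by 0.21 from 24 h to 48 h (adjusted p = 0.00101). At 48 h it was not distinguished from control (log2 fold change -0.06, 95% interval -0.15 to 0.036, adjusted p = 0.302). Mmp14 shares its position with an unnamed non-coding gene on the same strand, which had 34 to 104 counts.

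Mmp19, a secreted enzyme of basement membrane substrates (chr10:128626779-128636693), was at 30.7, 31.9 and 28.6 CPM in control, 30.8, 35.7 and 34.9 CPM at 24 h and 52.8, 50.4 and 47.9 CPM at 48 h. Control and 24 h overlapped, and all 48 h libraries were higher. Its log2 fold change was 0.73 at 48 h against control (SE 0.0738, adjusted p = 2.18e-07) and 0.58 from 24 h to 48 h (adjusted p = 2.78e-06), and 0.15 at 24 h, which was not called (adjusted p = 0.300). Mmp19 overlaps the protein-coding gene Tmem198b on the other strand, which had 227 to 435 counts, and the strand setting of the counting is not stated, so reads of these genes may not have been separated.

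Among the inhibitors, Timp1 (chrX:20736405-20740974), which is known to be inducible by cytokines and growth factors, was at 215, 227 and 204 CPM in control, 320, 303 and 325 CPM at 24 h and 113, 111 and 115 CPM at 48 h. It was highest in all 24 h libraries and lowest in all 48 h libraries, and no groups overlapped. It rose 1.47-fold at 24 h (log2 fold change 0.55, SE 0.0510, adjusted p = 9.22e-07) and was 1.91-fold lower than control at 48 h (log2 fold change -0.93, SE 0.0524, adjusted p = 9.3e-11). Between 24 h and 48 h it fell by 1.49 on the log2 scale (SE 0.0523, adjusted p = 2.77e-13), the 67th largest decrease of the 13812 genes. Its difference from control was thus of opposite sign at 24 h and at 48 h.

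Timp2, the inhibitor that also takes part in proMMP2 activation (chr11:118191895-118246566, minus strand), was the most abundant of all 10 genes, at 2172, 2188 and 2178 CPM in control, 1758, 1729 and 1747 CPM at 24 h and 1820, 1878 and 1853 CPM at 48 h. Both stimulated groups lay below control without overlap. It fell by 0.32 on the log2 scale at 24 h (SE 0.0327, adjusted p = 3.08e-06) and by 0.24 at 48 h (SE 0.0326, adjusted p = 9.83e-06). The difference of 0.085 between the times passed narrowly (adjusted p = 0.0379) and was lost without any 1 of the 24 h replicates 1 to 3 (adjusted p = 0.0860, 0.0693 and 0.0630) or of the 48 h replicates 1 to 3 (0.0559, 0.144 and 0.103), and with no filter on low counts (0.283).

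Timp3, which binds to the matrix and also inhibits ADAM and ADAMTS proteases (chr10:86136236-86185370), was at 17.4, 13.7 and 15.3 CPM in control, 15.3, 11.6 and 13.0 CPM at 24 h and 27.9, 24.3 and 25.6 CPM at 48 h. The 48 h libraries were above all others, while 24 h and control overlapped. Its log2 fold change was 0.74 at 48 h against control (SE 0.108, adjusted p = 1.7e-05) and 0.97 from 24 h to 48 h (adjusted p = 7.23e-07), and the -0.22 at 24 h was not called (adjusted p = 0.319). Timp3 was the only 1 of the 3 inhibitors above control at 48 h. Timp1 overlaps Syn1 (26 to 58 counts) and Timp3 overlaps Syn3 (0 to 7 counts), both transcribed from the other strand, and Timp2 overlaps Cep295nl on its own strand (78 to 118 counts).

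**Figure D2:**
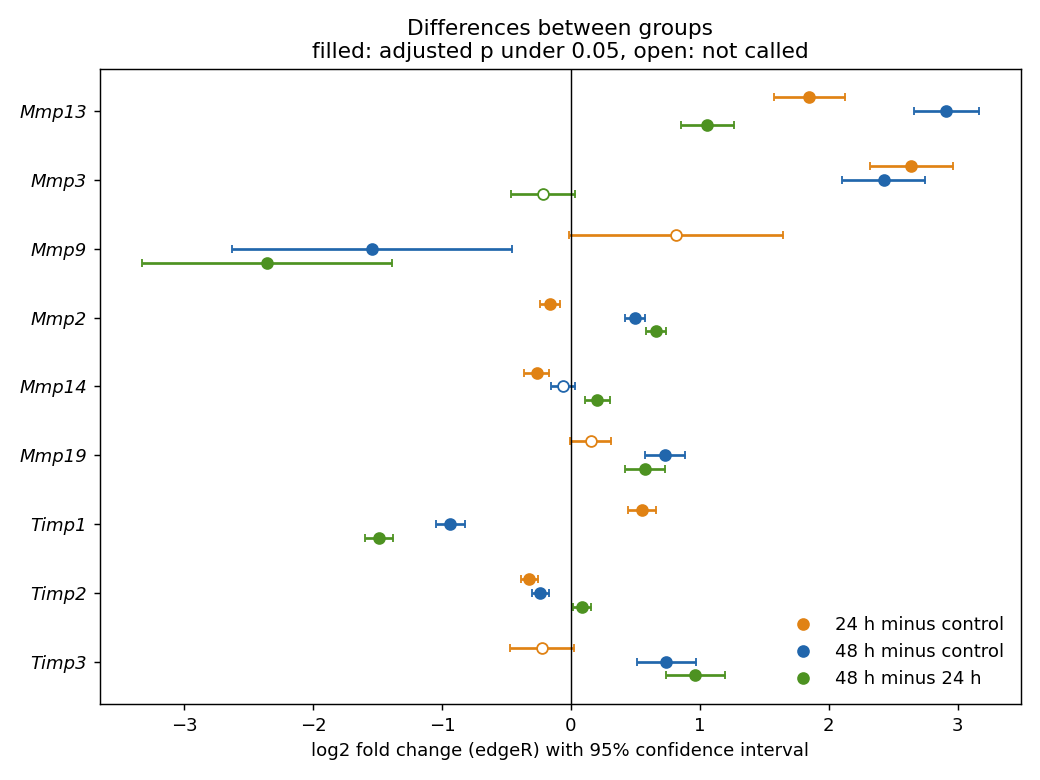
Log2 fold change of the 9 tested genes in each of the 3 comparisons, with 95% intervals from the fit of all 9 libraries, on a linear axis with a line at 0, where filled points have an adjusted p under 0.05. Mmp3 and Mmp13 lie furthest to the right in both comparisons with control, and Timp1 lies on opposite sides of 0 at 24 h and 48 h.

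Levels of different genes were compared as CPM per kb of the gene length that the authors give. In control the order was Timp2 at 559, Mmp2 at 254 and Timp1 at 242, which overlapped, Mmp14 at 80.0, Mmp19 at 8.60, Mmp3 at 2.23 and Timp3 at 1.90, which overlapped, then Mmp13 at 1.39 and Mmp9 at 0.189 CPM per kb. At 24 h Timp1 at 356 CPM per kb stood above Mmp2 at 227, and Mmp3 at 14.2 stood above Mmp19 at 9.57, with no overlap between any neighbours in the order. At 48 h Mmp2 at 358 CPM per kb stood above Timp1 at 127, and Mmp19 at 14.2, Mmp3 at 12.2, which overlapped with it, and Mmp13 at 10.6 came next after Mmp14 at 76.8. Mmp3 and Mmp13 were below Mmp2 and Mmp14 in every group on this scale.

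The summed level of the 7 enzymes was 341, 358 and 339 CPM per kb in control, 325, 318 and 324 at 24 h and 473, 473 and 469 at 48 h. That of the 3 inhibitors was 801, 819 and 791 CPM per kb in control, 813, 786 and 816 at 24 h and 598, 610 and 608 at 48 h. The 48 h libraries were highest for the enzymes and lowest for the inhibitors, and the inhibitor sums of control and 24 h overlapped. The ratio of summed inhibitors to summed enzymes was therefore 2.35, 2.29 and 2.33 in control, 2.50, 2.47 and 2.52 at 24 h and 1.26, 1.29 and 1.30 at 48 h. These sums rest mostly on abundant genes: Mmp2 and Mmp14 made up 96.1% to 96.6% of the enzyme sum in control and 91.8% to 92.5% at 48 h. Mmp3 held 0.494% to 0.798% of it in control, 3.73% to 4.85% at 24 h and 2.39% to 2.96% at 48 h. Timp1 held 29.1% to 31.2% of the inhibitor sum in control, 43.4% to 44.9% at 24 h and 20.4% to 21.2% at 48 h. The sums and ratios are descriptions without a test.

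**Figure D3:**
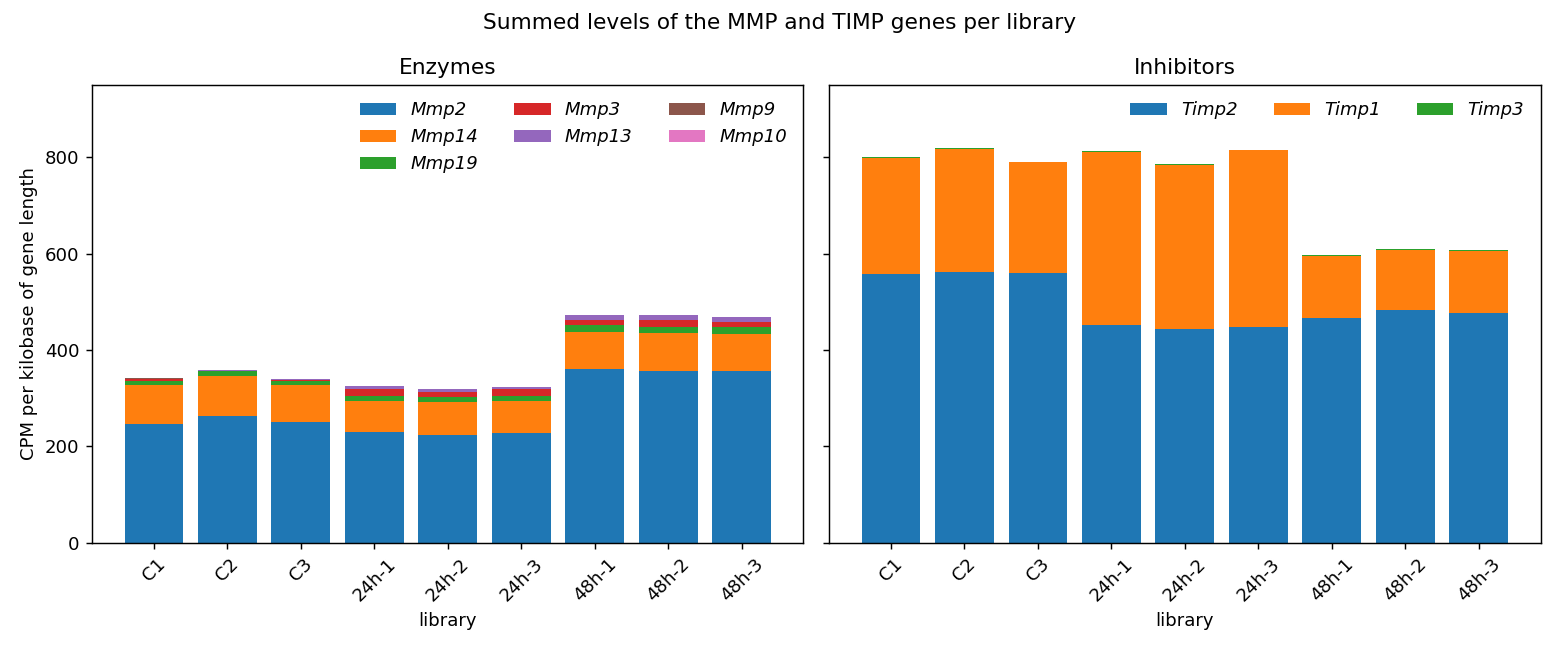
Summed CPM per kb of the 7 enzymes and of the 3 inhibitors in each library, by gene, stacked from 0. The enzyme bars are highest at 48 h (469 to 473) and the inhibitor bars lowest (598 to 610), and Mmp2 and Timp2 are the largest segments in every library.

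Enzyme to inhibitor ratios on the per kb scale were followed for 6 pairs fixed by hand. Mmp3 to Timp1 was 0.00927 ± 0.00218 (SD, n = 3) in control, 0.0398 ± 0.00457 at 24 h and 0.0964 ± 0.0137 at 48 h. By the difference of mean log2 ratios, the 24 h and 48 h groups were 4.35-fold and 10.5-fold above control. Mmp13 to Timp1 was 0.00575 ± 0.00127, 0.0143 ± 0.00101 and 0.0833 ± 0.00202, with 2.52-fold and 14.7-fold by the same measure. In both pairs the 3 groups did not overlap, and the step from 24 h to 48 h came with a fall of Timp1 in both and, for the latter, a rise of Mmp13. Mmp2 to Timp2 was 0.453 ± 0.0134, 0.506 ± 0.00281 and 0.754 ± 0.0173, again without overlap. Mmp14 to Timp2 went from 0.143 ± 0.00684 to 0.149 ± 0.00452 and 0.162 ± 0.000617, with overlap between control and 24 h. Mmp9 to Timp1 and Mmp19 to Timp3 overlapped between all groups. No ratio was tested.

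**Figure D4:**
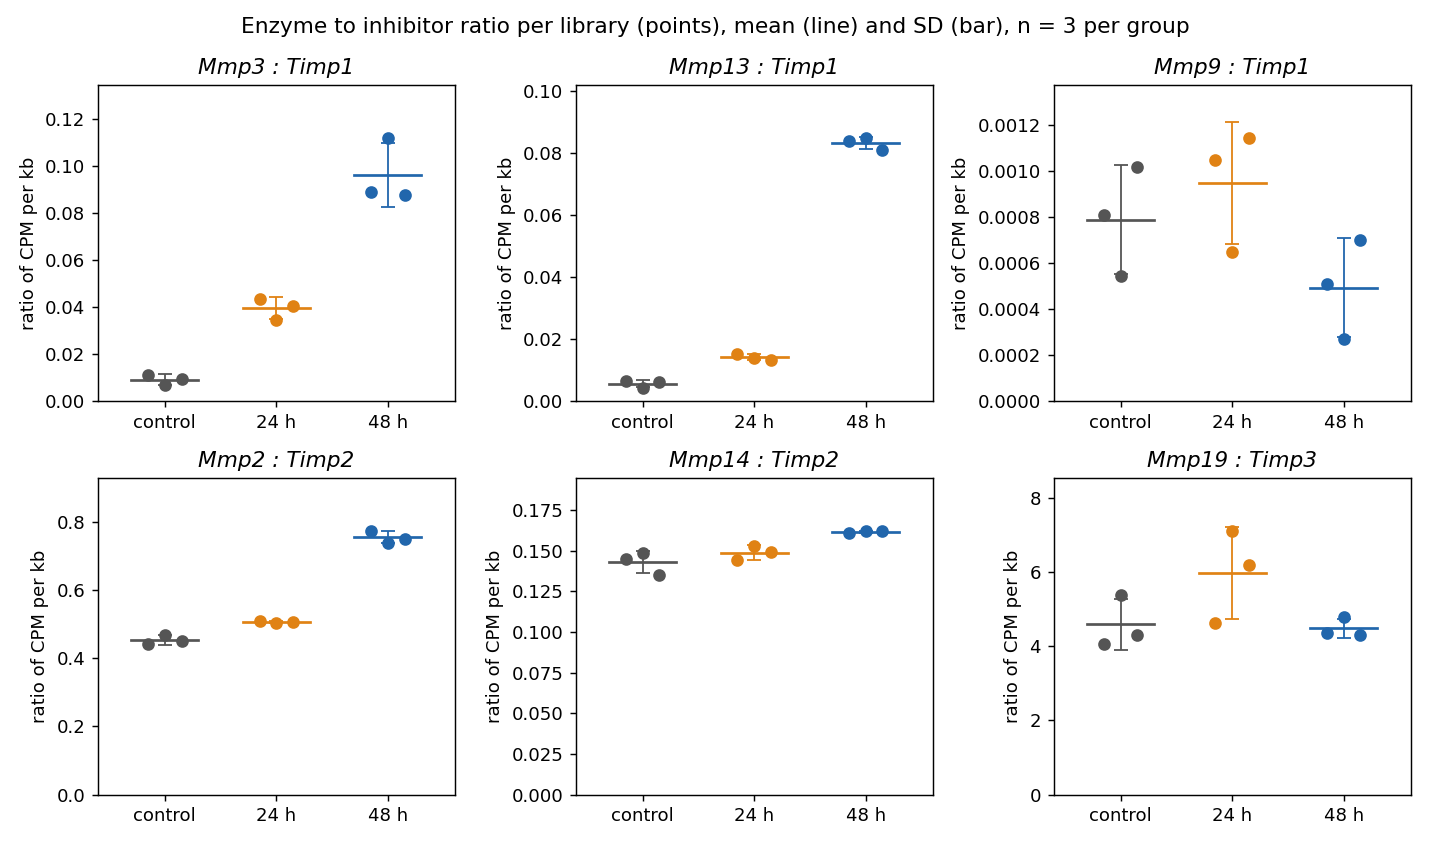
Ratio of enzyme to inhibitor, both in CPM per kb, for 6 pairs on linear axes from 0, with 1 point per library and the mean and SD as line and bars. The ratios of Mmp3 and of Mmp13 to Timp1 climb at each step, while those of Mmp9 to Timp1 and of Mmp19 to Timp3 overlap between all groups.

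Of 17 other MMP and TIMP genes, 7 had no count in any library and 3 were tested, Mmp11, Mmp23 and Mmp28. At 48 h against control 2 rose, where 22.0% of all genes were called higher. Mmp23 was at 5.74 CPM on average in control and at 12.2 CPM at 48 h (log2 fold change 1.07, adjusted p = 7.67e-06), and Mmp11 went from 51.9 to 58.8 CPM (0.18, adjusted p = 0.0348). At 24 h Mmp11 was the 1 called, at 43.6 CPM (log2 fold change -0.25, adjusted p = 0.0320), where 2.90% of all genes were called lower. All 3 rose from 24 h to 48 h, against 23.7% of all genes.

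The list of activators and pericellular regulators of MMPs held 30 genes, 21 of them tested. At 48 h against control 11 rose and 6 fell, with a median log2 fold change of 0.20, where 22.0% of all genes were called higher and 24.4% lower. At 24 h 3 rose and 4 fell, with a median of 0.032, where 3.25% and 2.90% of all genes were called. Lcn2, which encodes lipocalin 2, a protein that binds MMP9, had 2, 2 and 3 counts in control, 91, 58 and 90 at 24 h and 46, 81 and 71 at 48 h, so all stimulated libraries were above all control libraries. Lcn2 is counted among the genes that rose at both times. It passed the filter on low counts only through its stimulated libraries, so its differences from control were favoured by the filter. Plau, the urokinase that makes plasmin, a protease able to activate pro-MMPs, was at 117 CPM in control, 194 CPM at 24 h (log2 fold change 0.73, adjusted p = 1.7e-07) and 151 CPM at 48 h (0.37, adjusted p = 3.99e-05). Pcolce2, an enhancer of procollagen processing, went from 49.2 to 10.7 CPM at 48 h (-2.20, adjusted p = 1.07e-12). Ctsk, the collagenolytic cathepsin K, was lower at both times, at 136 CPM in control and 98.0 CPM at 24 h (-0.47, adjusted p = 8.41e-05), and -0.29 on that scale at 48 h (adjusted p = 0.00114).

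A list of 20 transcription factors held those that bind AP-1, ETS, RUNX, C/EBP and NF-kB motifs and also Sp1, which binds GC boxes, and all were tested. At 24 h 6 rose and 0 fell, where 3.25% of all genes were called higher. At 48 h 9 rose and 3 fell, where 22.0% and 24.4% of all genes did. The median log2 fold change was 0.24 at 24 h and 0.16 at 48 h. Cebpd, a C/EBP factor of the acute phase response, went from 8.89 CPM in control to 23.7 CPM at 24 h (log2 fold change 1.41, adjusted p = 2.42e-06) and 42.5 CPM at 48 h (2.25, adjusted p = 1.73e-10). Among AP-1 subunits, Fosl2 was at 160 CPM in control, 231 CPM at 24 h (0.53, adjusted p = 3.62e-05) and 279 CPM at 48 h (0.80, adjusted p = 1.44e-08). Fosl1 went from 63.5 CPM to 83.4 CPM at 24 h (0.40, adjusted p = 0.0012) and to 55.7 CPM at 48 h (-0.19, adjusted p = 0.0400). Fosb was 2.73 CPM in control and 6.01 CPM at 48 h (1.15, adjusted p = 5.19e-05). Fos and Jun were called at neither time against control. Of the other Jun family genes, Junb was called only at 24 h (0.29, adjusted p = 0.0197). Jund was called only at 48 h (0.37, adjusted p = 0.0463). Etv4, an ETS factor of the PEA3 group, fell at 48 h from 2.17 to 0.993 CPM (-1.12, adjusted p = 0.00518).

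**Figure D5:**
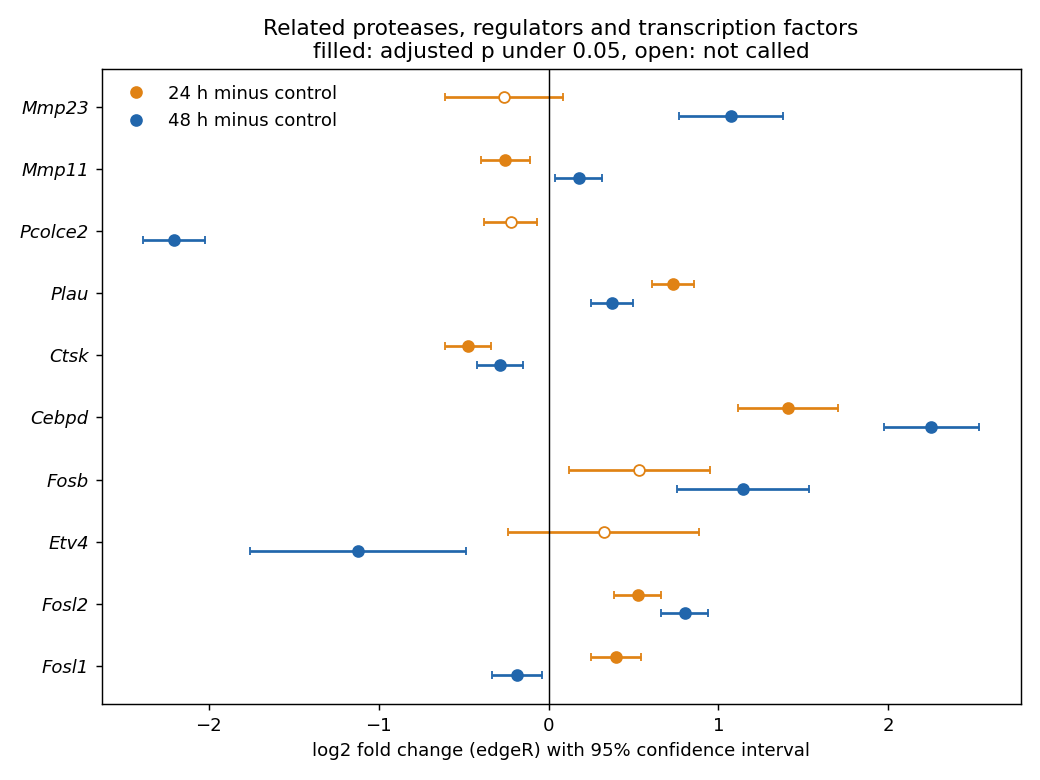
Log2 fold change of named other MMPs, regulators and transcription factors at 24 h and at 48 h against control, with 95% intervals and a line at 0, where filled points have an adjusted p under 0.05. Cebpd and Fosl2 lie right of 0 at both times, whereas Fosl1 lies right of it at 24 h and left of it at 48 h. Lcn2 is not drawn.

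The genes whose log2 CPM profile over the 9 libraries, centred on its own mean, came closest to a member's were found among 10072 protein-coding genes, by the root mean square (RMS) difference. For Mmp3 these were C3 (complement component 3), Hp (haptoglobin) and Gpr35, with RMS differences of 0.422, 0.427 and 0.459 where the median gene had 1.02. Each of them was called higher from 24 h to 48 h (log2 fold changes 0.75, 0.59 and 0.54), whereas Mmp3 was at -0.22 and not called. For Mmp13 they were Cebpd (0.246), Gpm6b (0.246) and C3 (0.250), against a median of 1.01. Timp1 was nearest to Tm4sf1 (0.0923), Bcat1 (0.143) and Ccn1 (0.146), against 0.603, and Tm4sf1 averaged 261, 336 and 130 CPM in control, at 24 h and at 48 h. The 2 CPM added to every level before the log flattened the profile of Mmp9 most, and those of Mmp3 and Mmp13 less. The profile of Mmp9 was nearest to Cenpw (0.0616), Pcdh7 (0.065) and Atr (0.065), against a median of 0.248. From 24 h to 48 h their log2 fold changes were -0.63, -0.60 and -0.48, where Mmp9 was at -2.36. Against control at 48 h they were -0.36, -0.24 and -0.25, where Mmp9 was at -1.54. The points share libraries and groups, so these distances are descriptions.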

How the data were processed

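Bulk RNA of 9 MLO-Y4 samples was sequenced from a directional library kit. Raw gene counts were deposited by the authors as a single table, which per the labels and methods came from HISAT2 alignment to GRCm39 and counting with featureCounts (2.06 in the processing notes). The methods also name RSEM, and neither the strand setting nor the handling of reads with several matches is stated, so counts of overlapping genes are uncertain. Coordinates and gene lengths are those of the deposited table. Within groups, all 9 pairs of libraries differed beyond counting noise (chi-square per degree of freedom 2.32 to 8.83).

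The tests used edgeR 4.0.16 (R 4.3.3, limma 3.58.1). Genes were filtered with filterByExpr (minimum count 10), scaled by TMM and fitted by quasi-likelihood on all 9 libraries by group alone, which left 6 residual degrees of freedom. Benjamini-Hochberg adjustment ran over 13812 genes, and an adjusted p under 0.05 is a call. The SE of a log2 fold change is its size over the square root of F. Promoters were read from GRCm39 at the GENCODE start of each gene's canonical transcript. Alternatives were other scalings, no filter, only the 2 groups compared, a replicate block, DESeq2 1.42.0 and leaving out each library. The members, the related gene lists and the tests were chosen with earlier results of these data known. All 10 members are named. From the lists, at most 3 called genes per time are named, those furthest from control on the log2 scale. One gene of these is not reported here. The nearest profiles, over genes at a mean of at least 5 CPM, are given for members with an absolute log2 fold change of at least 1.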

Additional observations from a re-analysis of the deposited data

Results flagged for a closer look

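Levels at 24 h and 48 h differed for 8 of the 9 tested genes when these groups, which share no libraries, were compared. The test was edgeR with Benjamini-Hochberg adjustment over all genes, 49.1% of which were called. The co-culture time of control is not given, so a different response to stimulation and time in culture cannot be told apart here. The log2 differences of 48 h minus 24 h were 0.66 for Mmp2, -2.36 for Mmp9, 1.06 for Mmp13 and 0.21 for Mmp14. They were 0.58 for Mmp19, -1.49 for Timp1, 0.085 for Timp2 and 0.97 for Timp3. Mmp9 was admitted to the test by its 24 h libraries, where it was highest, so its difference carries that limit. All libraries of one time were above all of the other for each of these 8 genes. The groups likewise did not overlap for 59.4% of all tested genes. Timp1, above control at 24 h and below it at 48 h, and Mmp2, below control at 24 h and above it at 48 h, changed the sign of their difference from control. No group was searched for outlying samples, since each has 3.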

How the results depend on the processing

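The number of called members kept within 1.5 times of its value under each alternative. With 1 library left out, it lay between 5 and 5 higher and 2 and 3 lower at 48 h against control, between 3 and 3 higher and 2 and 3 lower at 24 h, and between 5 and 6 higher and 2 and 3 lower from 24 h to 48 h. Of the member fold changes under alternatives, 388 kept their call, 14 lost it, 1 gained it and 0 reversed. The losses were of Mmp9 at 48 h against control, Mmp2 at 24 h, which was also lost in a fit of only control and 24 h (adjusted p = 0.0650), and Timp2 between the times. Mmp9 was removed by the filter in the fit of only control and 48 h, and DESeq2 gave it no adjusted p at 24 h. Over all genes at 24 h, 449 higher and 400 lower calls became 759 higher with no filter, 873 higher and 602 lower without control replicate 3, 295 and 223 without 24 h replicate 3, 222 lower without 24 h replicate 1, 254 lower in the fit of those groups alone, and 259 and 205 at an adjusted p under 0.01. Same-numbered libraries did not deviate together (correlations -0.1 to 0.168, 1 of 9 pairs over 0.1). With the replicate as a block, 5 members were higher and 3 lower at 48 h against control, 3 and 3 at 24 h, and 6 and 2 between the times, as without it. Other scalings moved the median of all genes by at most 0.039. Mmp9 and Mmp10 are limited by depth.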

Other observations

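Further genes of the activator and regulator list, chosen after their values were seen, were called at 48 h against control and not at 24 h. Of all tested genes, 46.4% were called at 48 h and 6.15% at 24 h. Furin, a convertase that activates Mmp14, went from 184 CPM in control to 244 CPM at 48 h (log2 fold change 0.41, adjusted p = 8.86e-06), and Bsg, an inducer of MMPs, from 1268 to 1632 CPM (0.36, adjusted p = 1.84e-06). Thbs2, a matrix protein that binds Mmp2 for clearance, went from 2588 to 4468 CPM (0.79, adjusted p = 1.25e-10). Plaur, the receptor of urokinase, went from 139 to 57.9 CPM (-1.26, adjusted p = 3.58e-12), and Cd44, a hyaluronan receptor that can anchor Mmp9 at the cell surface, from 331 to 224 CPM (-0.57, adjusted p = 3.34e-08). Each of the 5 was also called between 24 h and 48 h, in the same direction as at 48 h against control, where 49.1% of all genes were called between the times. In the same list Adam17, Cd151 and Pcolce2 had this pattern too, and Lrp1 and Ctsl were called only at 48 h against control.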
